A study of Mus musculus with 194 samples.

Results

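The comparison set calling cards from the cortex of 2 C57bl6J mice that received Cre-independent viruses beside those from the cortex of 6 GFAPCre mice. Its members were all insertion tables whose names carry the labels C57bl6J or GFAPCre for cortex, 8 of the 47 tables of the series, with 1 table for each animal. Both groups were injected with adeno-associated virus on postnatal day 0 to 1, and the cortex of each animal was cut into 10 pieces whose RNA was isolated and indexed apart before the calls were joined. The labels used here name the Cre line only. They do not give its strain background, the promoter that drives Cre, the virus it received, a protein fused to the transposase, the sex of the animals or their age at collection. Strain, virus and Cre therefore cannot be told apart in what follows, and values of GFAPCreNeg and Syn1Cre cortex, 6 animals each, are given as reference levels only.

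In a calling card experiment a piggyBac transposase carried by the virus leaves a transposon at TTAA sites, and the transposon later reports its own position through the RNA made from it. Without a fused factor piggyBac favours open chromatin, above all active enhancers, so the places where insertions gather differ with the type of cell. Astrocytes are glial cells that clear glutamate and potassium around synapses, are coupled by gap junctions and mark themselves with the intermediate filament GFAP. Many lines with Cre under a GFAP promoter are also active in radial glia, the progenitors of astrocytes and of cortical excitatory neurons, whereas cortical GABA interneurons are born outside the cortex in the ganglionic eminences. A virus that does not need Cre can mark any cell that it infects.

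The places where insertions can be counted are best seen in the sequence itself. The promoters below, each running from 250 bases before to 50 bases after a start site and taken from RefSeq on GRCm38.p6, were chosen after the values were seen, because they hold sites at which the groups could be compared letter by letter. Genes of astrocytes stand beside a gene of excitatory neurons and a gene of interneurons. They lie on the minus strand at chr14:57133562-57133861 for Gjb6, chr3:50443564-50443863 for Slc7a11, chr15:8710758-8711057 for Slc1a3, chr6:55681214-55681513 for Neurod6 and chr16:23890795-23891094 for Sst. Capitals mark TTAA, the target of piggyBac, which reads the same on both strands. Of 32851 promoters of this length, 17210 or 52.4% held at least 1 TTAA.
Gjb6: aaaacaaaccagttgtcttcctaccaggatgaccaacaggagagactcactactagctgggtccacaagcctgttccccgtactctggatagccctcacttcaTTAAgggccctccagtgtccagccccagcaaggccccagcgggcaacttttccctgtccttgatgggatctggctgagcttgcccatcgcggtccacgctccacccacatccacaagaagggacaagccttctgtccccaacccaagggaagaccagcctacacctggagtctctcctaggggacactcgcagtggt
Slc7a11: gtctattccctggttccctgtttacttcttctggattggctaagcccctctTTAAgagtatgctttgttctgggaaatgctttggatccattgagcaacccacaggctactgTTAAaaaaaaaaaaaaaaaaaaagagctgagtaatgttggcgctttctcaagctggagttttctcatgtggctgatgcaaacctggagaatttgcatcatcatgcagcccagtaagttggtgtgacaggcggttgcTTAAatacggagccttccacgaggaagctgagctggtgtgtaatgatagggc
Slc1a3: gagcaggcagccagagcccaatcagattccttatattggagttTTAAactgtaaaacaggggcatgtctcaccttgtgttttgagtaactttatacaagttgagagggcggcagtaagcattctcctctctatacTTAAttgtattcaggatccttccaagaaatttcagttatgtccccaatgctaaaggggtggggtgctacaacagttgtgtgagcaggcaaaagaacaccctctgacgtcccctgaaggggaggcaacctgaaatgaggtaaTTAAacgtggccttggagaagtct
Neurod6: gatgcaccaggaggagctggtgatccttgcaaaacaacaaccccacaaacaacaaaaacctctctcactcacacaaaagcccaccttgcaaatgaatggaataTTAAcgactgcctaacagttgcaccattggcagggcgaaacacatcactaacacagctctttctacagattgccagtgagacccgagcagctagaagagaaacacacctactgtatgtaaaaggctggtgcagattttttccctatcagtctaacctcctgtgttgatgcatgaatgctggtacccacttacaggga
Sst: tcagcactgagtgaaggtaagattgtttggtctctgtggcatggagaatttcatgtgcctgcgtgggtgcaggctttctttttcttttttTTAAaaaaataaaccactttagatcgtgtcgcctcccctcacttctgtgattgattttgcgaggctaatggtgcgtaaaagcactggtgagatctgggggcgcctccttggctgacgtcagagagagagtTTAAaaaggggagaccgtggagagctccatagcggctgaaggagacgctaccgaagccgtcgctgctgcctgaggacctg

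Gjb6, which encodes a gap junction protein of astrocytes, held 1 TTAA in this promoter. It took 5 and 9 insertions in the C57bl6J animals and 11, 12, 8, 10, 6 and 8 in the GFAPCre animals 1 to 6, or means of 3.96 and 11.1 CPM, which are insertions scaled to a common library total. The groups overlapped in raw insertions, and did so with more insertions in total from each C57bl6J animal than from any GFAPCre animal. Slc7a11, the cystine and glutamate exchanger, held 3 TTAA sites, which took 18 and 24 insertions in C57bl6J and 22 to 26 in GFAPCre, or 12.2 and 30.0 CPM. The start used for this window lies 55.5 kb inside the annotated span of Slc7a11. Its site 2 bases before the start took 10 and 12 insertions in C57bl6J and 12 or 13 in every GFAPCre animal, nearly the same number at every depth. What kept this count level was not tested. The deposited tables record at most 20 insertions at a position, and fits that allow for this limit are given with the astrocyte genes.

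The sites of Slc1a3, a glutamate transporter of astrocytes, took 2 and 0 insertions in C57bl6J and 3, 6, 3, 7, 4 and 1 in GFAPCre, or 0.683 and 4.80 CPM. The single site of Neurod6, a transcription factor of cortical excitatory neurons, took 8 and 12 insertions in C57bl6J and 3, 9, 2, 4, 3 and 4 in GFAPCre, or 5.74 and 4.70 CPM. The Sst promoter, of the peptide somatostatin made by a class of interneurons, held 2 sites with 0 and 2 insertions in C57bl6J and 1 in all GFAPCre animals together. Promoters of Dlx1, Gad2, Nxph1, Erbb4 and Sox21 held no TTAA in the same window, and the 1 site of the Slc1a2 promoter held no insertion in these animals. The comparisons below therefore rest on whole loci, each a gene body with 10 kb on either side, and on windows of 50 kb.

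The C57bl6J animals yielded 1510040 and 2133377 insertions on chromosomes 1 to 19, against 943117, 1468600, 585792, 812849, 600388 and 665439 in the GFAPCre animals 1 to 6. GFAPCre lay lower in every animal, and the means differed by -975678 insertions, between 1821708 ± 440766 (SD, n = 2) and 846031 ± 334304 (SD, n = 6), with a two-sided exact permutation p of 0.0357, the smallest that 28 splits allow. Reads per insertion ran the other way, at 3.14 and 4.08 in C57bl6J and 8.43 to 24.0 in GFAPCre, and rows seen in 1 read made up 40.7% and 31.3% of the C57bl6J insertions but 5.64% to 16.6% of the GFAPCre insertions. When only rows with at least 2 reads were kept, the difference was -423540 with an adjusted exact permutation p of 0.143. Both C57bl6J tables held 8 barcodes, while those of the GFAPCre animals 1 to 6 held 1, 2, 2, 8, 1 and 1. Whether this bears on the totals was not tested. In C57bl6J animal 1, 1 barcode held 1556 insertions while the highest held 331281. The groups came from different sequencing pools, and an effect of the pool cannot be told apart from that of the group. Correlations of log2 values across gene loci, which are not independent, were 0.97 between the C57bl6J animals, 0.90 to 0.95 among GFAPCre animals and 0.88 to 0.95 between groups.

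Insertions of the GFAPCre animals lay more often in genes. Gene bodies of protein-coding genes, which cover 39.99% of chromosomes 1 to 19, held 54.3% and 54.1% of the C57bl6J insertions and 58.5% to 60.5% of the GFAPCre insertions, and the groups did not overlap. The difference between the means was 5.51 percentage points, with a two-sided exact permutation p of 0.0357 that stayed at 0.0357 after Benjamini-Hochberg adjustment over 3 such tests. Within 1 kb of a gene end lay 6.75% and 6.39% of the C57bl6J insertions and 6.96% to 8.01% of the GFAPCre insertions, against 3.04% of the bases. The means, 6.57% ± 0.258 (SD, n = 2) and 7.48% ± 0.354 (SD, n = 6), differed by 0.91 points with the same adjusted exact permutation p of 0.0357. GFAPCre animal 2, with the most insertions of its group, had the lowest share near gene ends, and animal 3, with the fewest, the highest. Animal 2 came closest in depth to C57bl6J animal 1, and their shares near gene ends were 6.96% and 6.75%. Whether depth bears on this share was not tested. With rows of at least 2 reads the gene-body difference was 5.79 points, with an exact permutation p of 0.0357 that became 0.107 after adjustment. For gene ends the adjusted exact permutation p was 0.143. GFAPCreNeg animals had 62.3% to 64.5% of their insertions in gene bodies and Syn1Cre animals 57.1% to 60.8%.

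Of 12868 gene loci tested, GFAPCre stood higher at 705, or 5.48%, and lower at 912, or 7.09%, by edgeR's quasi-likelihood test with Benjamini-Hochberg adjustment. Values of loci and windows are insertions scaled to a common total over chromosomes 1 to 19 by the trimmed mean of M-values, here CPM. Over all loci tested the median log2 fold change, GFAPCre over C57bl6J, was 0.0045. Scaled by total insertions alone, the median was 0.107, and 1314 loci stood higher and 651 lower, so that 66.9% of calls rather than 43.6% were higher. In the fit without C57bl6J animal 1 the calls dropped from 1617 to 578, and without C57bl6J animal 2 to 495. Of the 1617, 564 were called in the same direction without the first and 479 without the second, and none had the opposite sign in these fits. CPM of the 2 groups did not overlap at 2873 of the 12868 loci tested, and at 1465 of the 1617 called. A lack of overlap, where given below, is thus shared by most called loci and does not set the named genes apart. In cortex tissue of mixed cells, fewer marked cells of a type and fewer insertions per cell cannot be told apart.

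Dlx1, a homeobox gene that specifies GABA interneurons, lies at chr2:71528113-71533981 and its locus carried 258 and 242 CPM in C57bl6J. GFAPCre animals had 47.4 at the lowest, 55.2 at the median and 75.2 at the highest. Every GFAPCre animal thus lay far below both C57bl6J animals, with a log2 fold change of -2.13 (SE 0.13) and an edgeR adjusted p of 9.0e-12. The locus of Sst, at chr16:23889573-23891342, carried 45.1 and 40.6 CPM in C57bl6J and 1.67, 5.41 and 11.8 at the lowest, median and highest of GFAPCre, with a log2 fold change of -2.76 (SE 0.25) and an edgeR adjusted p of 1.1e-08. The groups did not overlap there either. Counting each position of the genome once per animal, the change at the Dlx1 locus was -0.93, with an edgeR adjusted p of 1.3e-05, and that at the Sst locus -2.04, so that the size at Dlx1 depended on positions with many insertions.

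Slc1a2, the main glutamate transporter of astrocytes, lies at chr2:102658239-102790784 and went the other way. Its locus held 217 and 234 CPM in C57bl6J and 294, 392 and 505 at the lowest, median and highest of GFAPCre, without overlap, for a log2 fold change of 0.81 (SE 0.15) and an edgeR adjusted p of 5.3e-04. Neurod6, at chr6:55677818-55681263, held 308 and 295 CPM in C57bl6J and 250, 305 and 342 in GFAPCre. The groups overlapped, and its log2 fold change of -0.02 (SE 0.13) did not pass the threshold (edgeR adjusted p 0.95).

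**Figure D1:**
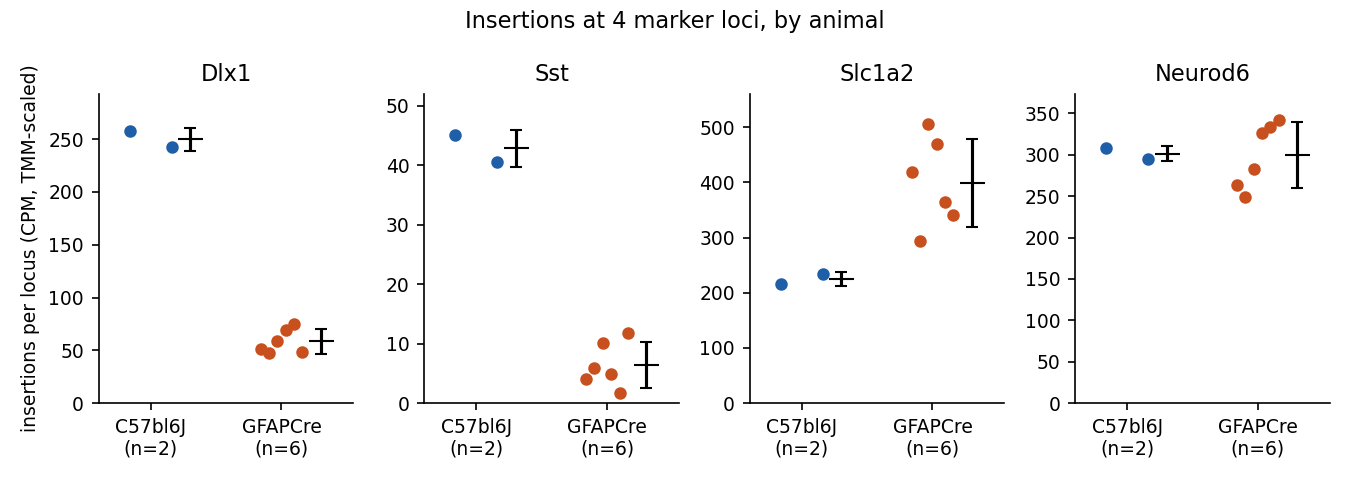
Insertions in CPM at the loci of Dlx1, Sst, Slc1a2 and Neurod6, with a point for each animal and the mean and SD beside each group (C57bl6J n = 2, GFAPCre n = 6). Dlx1 and Sst lie lower in every GFAPCre animal, Slc1a2 lies higher in every one, and Neurod6 overlaps.

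Around the start sites the differences sat at distinct distances. Within 20 kb of the Dlx1 start, C57bl6J animals had 364 and 359 CPM and GFAPCre animals 67.8 to 93.5. Out to 100 kb on either side the groups stood at 511 and 504 against 191 to 347, since the last stretch downstream held more insertions in GFAPCre. At Sst, 47.1 and 42.1 CPM lay within 20 kb in C57bl6J and 3.34 to 11.8 in GFAPCre. The start used for Slc1a2 lies 48.2 kb inside its annotated span, and the 20 kb next to it overlapped between groups, with 37.6 and 39.1 against 35.1 to 93.2. From 100 to 50 kb before that start, ahead of the gene span, C57bl6J had 163 and 186 CPM and GFAPCre 267 to 597. From 50 to 40 kb before it, a stretch that holds the annotated 5′ end of the gene, the values were 73.1 and 76.7 against 105 to 177. The total over 100 kb on either side was 348 and 383 in C57bl6J and 510 to 985 in GFAPCre. At Neurod6 the 20 kb next to the start overlapped as well, with 318 and 307 against 255 to 348, while the 100 kb total was 629 and 618 in C57bl6J and 398 to 535 in GFAPCre.

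**Figure D2:**
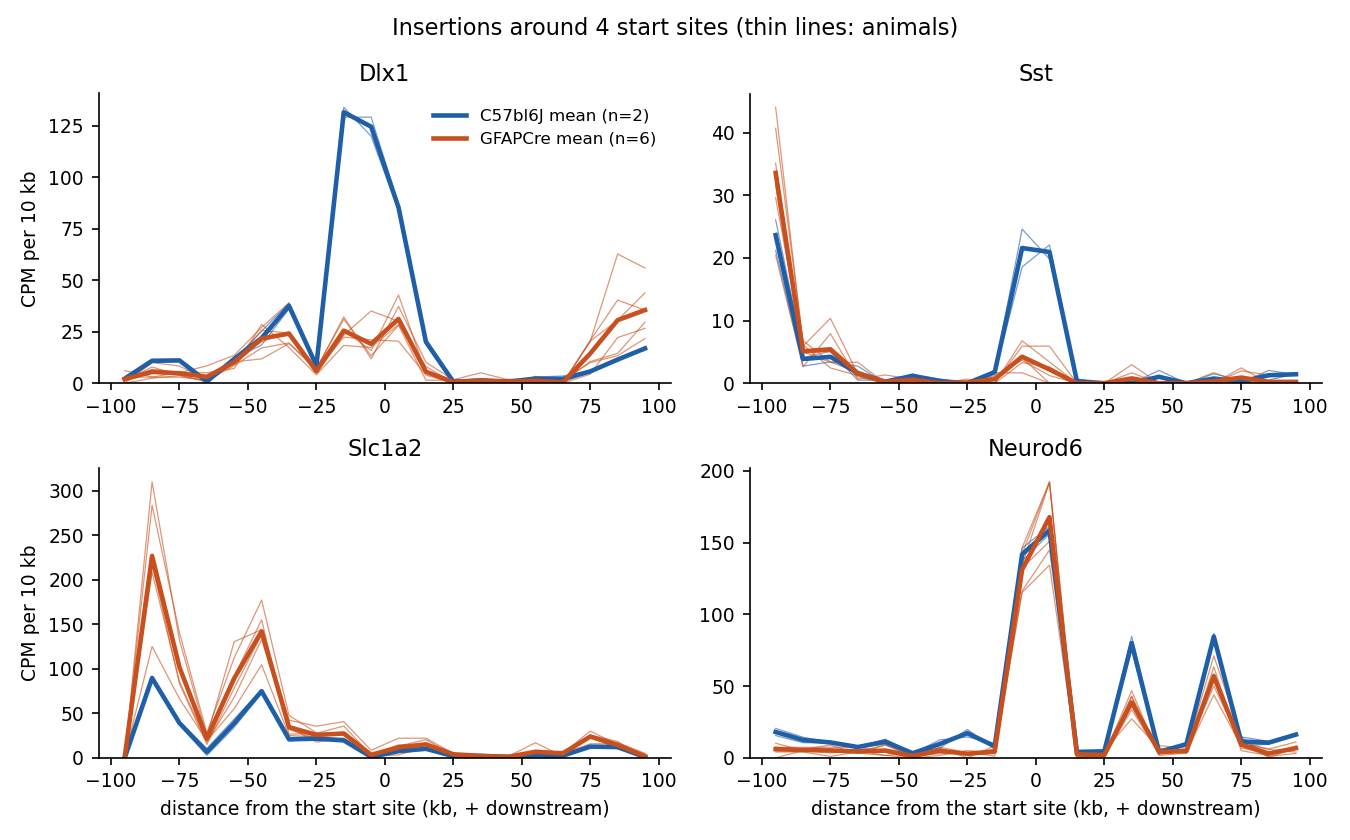
Insertions in CPM per 10 kb against the distance from the start site of 4 genes, with thin lines for animals and thick lines for group means (C57bl6J n = 2, GFAPCre n = 6). Within 20 kb of Dlx1 the C57bl6J animals reach 364 and 359 CPM in sum and the GFAPCre animals 67.8 to 93.5, while the highest values of Slc1a2 lie ahead of its annotated span and at its 5′ end, since the start used lies 48.2 kb inside the gene.

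The interneuron program was lower in GFAPCre. Of 22 interneuron transcription factor genes, 17 were tested, 12 fell and none rose, with a median log2 fold change of -1.50 beside 0.0045 for all loci and 7.09% of all loci called lower. Dlx5, a homeobox gene of the same family as Dlx1, carried 96.3 and 104 CPM in C57bl6J and 14.5, 21.5 and 26.7 at the lowest, median and highest of GFAPCre, for a log2 fold change of -2.32 (SE 0.17, edgeR adjusted p 5.5e-11), and its neighbour Dlx6 fell by 2.28. Sp9, a zinc finger factor of newly born interneurons, carried 99.1 and 99.8 CPM against 15.3, 18.7 and 31.7 and fell by 2.31. None of these 3 overlapped between groups. The loci of Dlx5 and Dlx6 share insertions, as do those of Dlx1 and Dlx2.

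Lhx6, the factor of interneurons from the medial ganglionic eminence, had 14.3 and 19.6 CPM in C57bl6J and 1.67 to 5.92 in GFAPCre, and Prox1, a factor of those from the caudal one, had 26.0 and 24.1 against 7.14 to 13.6. Both genes were picked after their values were seen, to show either source, and both fell, though the call of Lhx6 was lost without C57bl6J animal 2. Sox6, Nr2f1, Nr2f2 and Zeb2 did not pass the threshold, with log2 fold changes of 0.45, 0.13, 0.07 and -0.28. With depth thinned to the shallowest animal and positions counted once, 7 of 14 members tested fell, and with gene bodies alone 5 of 9.

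Of the genes for GABA itself, all 5 were tested, 3 fell and none rose, where 7.09% of all loci were called lower. The median log2 fold change was -2.03. Gad2, a glutamate decarboxylase that makes GABA, carried 69.0 and 68.2 CPM in C57bl6J and 7.40, 11.01 and 20.0 at the lowest, median and highest of GFAPCre. That was a log2 fold change of -2.53 (SE 0.19, edgeR adjusted p 1.1e-10), without overlap. The other decarboxylase, Gad1, stood at 46.5 and 48.6 CPM against 5.10, 10.8 and 22.0 and fell by 2.03 on the log2 scale. Slc32a1, which loads GABA into vesicles, stood at 21.2 and 19.6 against 1.67, 3.87 and 7.34 and fell by 2.29. Abat, which breaks GABA down, had a change of -0.15, short of the threshold.

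Among 34 genes of interneuron subtypes and surfaces 26 were tested, 15 fell and none rose, where 7.09% of all loci were called lower. The median log2 fold change was -0.93. Besides Sst, the largest changes were those of the neurexophilins, secreted glycoproteins of the synapse, and of Erbb4, the neuregulin receptor of interneurons. Nxph2 had 59.4 and 64.7 CPM in C57bl6J against 6.78, 10.7 and 16.7 in GFAPCre, a log2 fold change of -2.52 (SE 0.19). Nxph1 had 218 and 268 CPM against 49.98, 68.1 and 81.4, a change of -1.89 (SE 0.13, edgeR adjusted p 5.5e-11). Erbb4, a long gene on chromosome 1, had 523 and 580 CPM against 153, 177 and 209, a change of -1.61 (SE 0.11). At these loci no GFAPCre animal reached either C57bl6J animal. Lamp5, Robo1 and Cck, with -0.11, -0.24 and 0.34, did not pass the threshold, and Pvalb, Vip and Npy were among 8 members with too few insertions to test. Leaving out C57bl6J animal 1, 9 members fell.

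Markers of striatal projection neurons, the GABA neurons that lie below the cortex, were lower too. Of 22 genes 18 were tested, 11 fell and none rose, where 7.09% of all loci were called lower. The median log2 fold change was -0.56. Isl1, a factor of striatal neurons, carried 86.1 and 72.7 CPM in C57bl6J and 12.2, 15.996 and 38.4 at the lowest, median and highest of GFAPCre, a log2 fold change of -2.03 (SE 0.20, edgeR adjusted p 4.3e-08). Ebf1, a factor of the same neurons and of pericytes, carried 178 and 169 CPM against 30.6, 41.5 and 87.3, a change of -1.83. Zfp503 had 27.3 and 18.0 CPM against 3.39, 5.40 and 15.0, a change of -1.77. Foxp2, which deep-layer cortical neurons express as well, had 1137 and 1072 CPM against 388, 513 and 595, a change of -1.12. No value of GFAPCre reached C57bl6J at these 4 loci.

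The dopamine receptor genes Drd1 and Drd2, with changes of -1.11 and -1.06, were picked after their values were seen as those that separate the main striatal classes. The Drd1 call was lost with positions counted once and the Drd2 call without either C57bl6J animal. Ppp1r1b, a phosphatase inhibitor of the same neurons, stood at -0.05 and did not pass the threshold. The sum over all 22 striatal loci, tested or not, was 5604 and 5242 CPM in C57bl6J and 3152 to 4158 in GFAPCre. Striatal members that fell numbered 5 without C57bl6J animal 1 and 6 without animal 2. Whether tissue below the cortex was included in the dissection was not tested.

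Genes of cortical excitatory neurons differed less. Of 21 genes 20 were tested, 4 fell and none rose, where 7.09% of all loci were called lower. The median log2 fold change was -0.17. When positions were counted once the median was 0.17 and 1 fell, and 1 fell without C57bl6J animal 2. Slc17a6, a vesicular glutamate transporter, had the largest change, with 187 and 180 CPM in C57bl6J against 60.2, 84.9 and 94.7 in GFAPCre, a log2 fold change of -1.18 (SE 0.13, edgeR adjusted p 4.2e-07). Nr4a2, a nuclear receptor of deep cortical and claustral neurons, had 141 and 196 CPM against 69.5, 108 and 125, a change of -0.69.

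At the Tbr1 locus, of a factor of early-born projection neurons, C57bl6J had 339 and 365 CPM and GFAPCre 194, 238 and 277, a change of -0.57. It was 0.06 when positions were counted once and 0.006 in gene bodies without flanks, where it no longer passed the threshold. The calls of Tbr1 and Nr4a2 were lost without C57bl6J animal 2. Neurod1, Neurod2, Emx1, Camk2a and Slc17a7 had changes of -0.15, -0.23, -0.19, -0.07 and 0.23 and did not pass the threshold. Each of these loci, which mark the cortex the labels name, carried insertions in every animal.

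Layer genes moved in both directions. Of 26 deep-layer genes 23 were tested, 11 fell and 1 rose, where 7.09% of all loci were called lower and 5.48% higher. The median log2 fold change was -0.39. Syt6, a synaptotagmin of corticothalamic neurons, had 36.9 and 27.1 CPM in C57bl6J against 8.16, 12.6 and 14.8 in GFAPCre, a change of -1.45 (SE 0.23, edgeR adjusted p 8.3e-05). Lpl, lipoprotein lipase, had 32.8 and 35.6 against 8.47, 19.7 and 23.7, a change of -0.81. Etv1, a factor of subcortically projecting neurons, rose from 124 and 180 CPM to 228, 271 and 308, a change of 0.80 (SE 0.14, edgeR adjusted p 3.2e-04). With positions counted once 4 deep-layer members fell, and 5 or 2 fell without C57bl6J animal 1 or 2. The Etv1 call was lost without the first and the Lpl call without either.

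All 14 upper-layer genes were tested, 3 fell and 2 rose, where 7.09% of all loci were called lower and 5.48% higher. The median was -0.26. Cux2, a homeobox gene of upper layers, had 230 and 211 CPM against 98.3, 128 and 159, a change of -0.81 (SE 0.13), and its relative Cux1 one of -0.57. Mdga1, a cell adhesion gene, fell by 0.72 on the log2 scale. Rorb and Pou3f2, factors of upper layers that astroglia express as well, rose by 0.53 and 0.67. Leaving out C57bl6J animal 1, 1 upper-layer member fell and none rose. Without animal 2 the calls of Mdga1, Rorb and Pou3f2 were lost.

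Genes that most neurons share did not move one way. Of 29 genes 27 were tested, 3 rose and 3 fell, with a median log2 fold change of 0.15, where 5.48% of all loci were called higher and 7.09% lower. Snap25, of the vesicle fusion machinery, had 206 and 210 CPM in C57bl6J and 237, 293 and 322 at the lowest, median and highest of GFAPCre, a change of 0.45 (SE 0.12, edgeR adjusted p 0.015), and Nrg1, the ligand of Erbb4, a change of 0.34. Nefl, a neurofilament gene, had 39.6 and 41.6 CPM against 16.3, 20.6 and 31.1, a change of -0.96, Scg2, a granin of secretory vesicles, one of -0.72 and Elavl2, an RNA-binding protein, one of -0.64. Under total scaling 8 rose and 3 fell. Leaving out C57bl6J animal 1 none rose and 2 fell, and leaving out animal 2, 1 rose and 2 fell. The calls of Nrg1 and Scg2 were also lost without GFAPCre animal 4, and that of Nrg1 without GFAPCre animal 1.

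The astrocyte program was higher in GFAPCre. Of 55 astrocyte genes 52 were tested, 35 rose and none fell, with a median log2 fold change of 0.81, where 5.48% of all loci were called higher. Gjb6 carried 25.3 and 31.1 CPM in C57bl6J and 52.7, 73.5 and 144 at the lowest, median and highest of GFAPCre, for a log2 fold change of 1.49 (SE 0.26, edgeR adjusted p 2.8e-04). Aqp4, the water channel of astrocyte endfeet, carried 21.2 and 27.1 against 44.8, 63.0 and 119, a change of 1.46. Slc1a3 carried 171 and 192 CPM against 294, 477 and 708, a change of 1.43 (SE 0.21, edgeR adjusted p 3.6e-05). Plpp3, a lipid phosphatase, carried 161 and 176 against 284, 443 and 608, a change of 1.42. At these 4 loci every GFAPCre animal lay above both C57bl6J animals.

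Slc7a11, whose promoter is shown above, carried 152 and 154 CPM at its locus in C57bl6J and 257, 423 and 607 in GFAPCre, without overlap, a log2 fold change of 1.48 (SE 0.20, edgeR adjusted p 1.2e-05). It is not in the list and was named by the rule for all loci. With counts corrected for the limit of 20 insertions at a position (a setting added once the data had been seen), the change was 1.63 at the Slc7a11 locus, 1.61 at the Gjb6 locus and 1.51 at the Slc1a3 locus. With positions counted once it was 0.96, 0.97 and 1.02. Gfap, the gene whose promoter gives such lines their name, had 17.8 and 13.5 CPM in C57bl6J and 15.0, 25.6 and 35.6 at the lowest, median and highest of GFAPCre, with overlap, and its change of 0.63 did not pass the threshold (edgeR adjusted p 0.093). Aldh1l1, S100b and Apoe, with 0.57, 0.50 and 0.87, did not pass it either.

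The sum over the 54 astrocyte loci on chromosomes 1 to 19, tested or not, was 3254 and 3604 CPM in C57bl6J. It was 6451, 4290, 8233, 7195, 5019 and 5192 in the GFAPCre animals 1 to 6. No GFAPCre animal came down to C57bl6J. Among them the sum was lowest in animal 2, which had the most insertions, and highest in animal 3, which had the fewest. Animal 2, with 1468600 insertions, came closest in depth to C57bl6J animal 1 with 1510040. Thinning every animal to 585792 insertions, 23 of 49 members tested rose, at a median of 0.81, and with positions also counted once 12 of 47 rose. In the fit without C57bl6J animal 1, 19 members rose.

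Of 25 astroglial transcription factor genes 24 were tested, 12 rose and none fell, where 5.48% of all loci were called higher. Their median log2 fold change was 0.51. Their summed level overlapped between groups, with 7989 and 8525 CPM in C57bl6J and 11116, 7940, 15096, 13201, 10022 and 10211 in the GFAPCre animals 1 to 6, animal 2 lying below both C57bl6J animals. Dbx2, a homeobox gene, had 49.2 and 54.2 CPM in C57bl6J and 75.1, 122.9 and 232 at the lowest, median and highest of GFAPCre, a change of 1.38 (SE 0.26, edgeR adjusted p 5.0e-04). Id3, an inhibitor of helix-loop-helix factors, had 21.9 and 29.6 against 53.3, 67.7 and 84.7, a change of 1.35. Klf15 had 15.7 and 21.1 against 28.4, 44.9 and 59.3, a change of 1.18. Pax6, which radial glia and astrocytes express, had 19.1 and 32.6 against 42.8, 52.8 and 89.8, a change of 1.05. These 4 did not overlap. Nfib, Nfix and Id4, which neurons express as well, stood at -0.02, -0.26 and 0.02, short of the threshold. The members that rose numbered 3 without C57bl6J animal 1, when Pax6 lost its call, and 5 without animal 2.

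**Figure D3:**
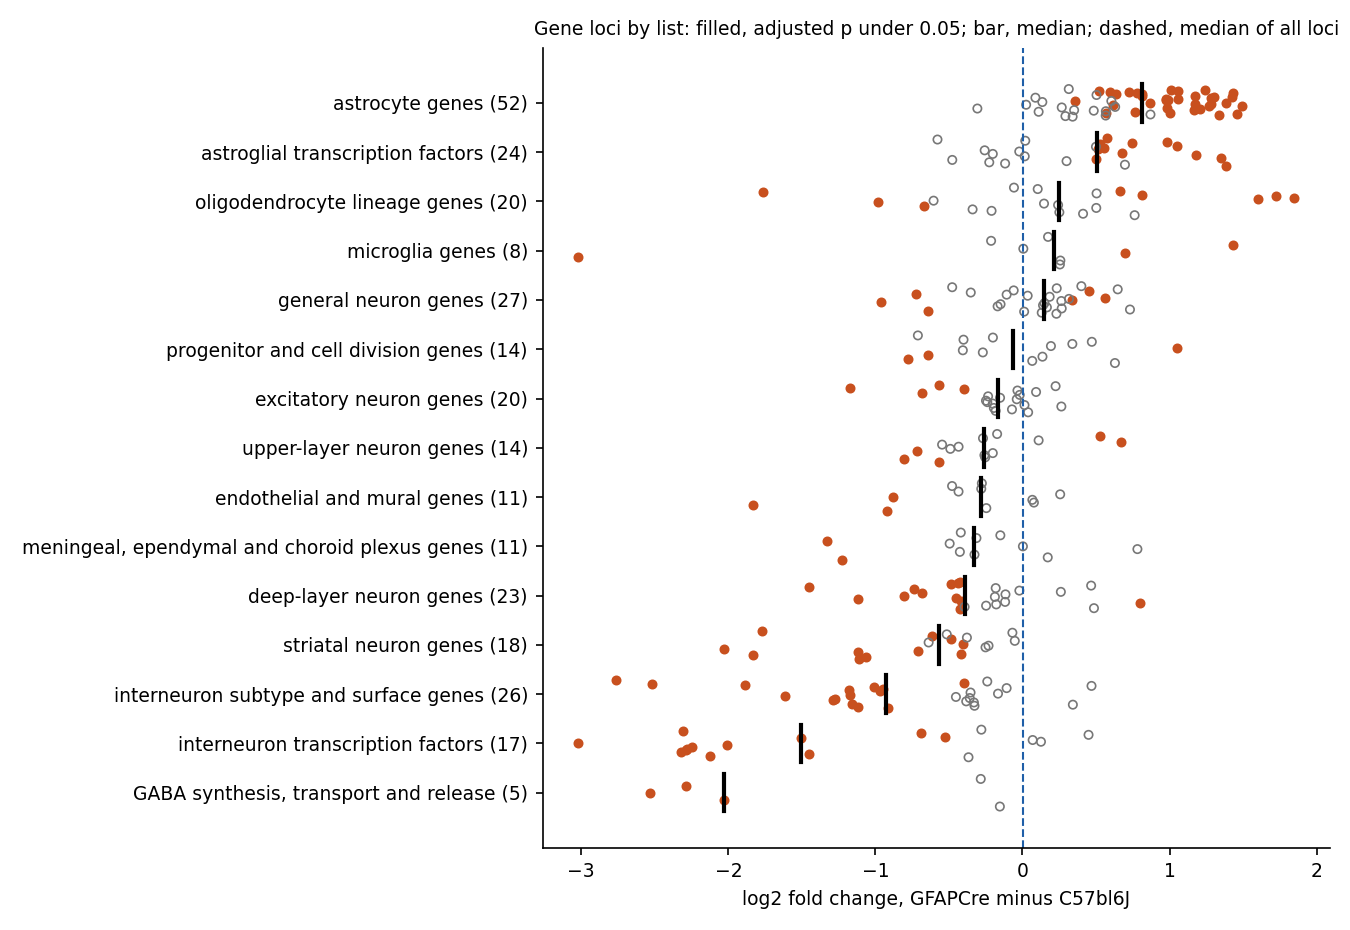
Log2 fold change, GFAPCre minus C57bl6J, of each gene locus tested in 15 gene lists, with the number tested in brackets; filled points passed an edgeR adjusted p of 0.05, black bars are list medians and the dashed line is the median of all loci (0.0045). Astrocyte genes lie to the right (median 0.81) and the GABA genes farthest to the left (median -2.03).

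Genes of the oligodendrocyte lineage split. Of 30 genes 20 were tested, 5 rose and 3 fell, where 5.48% of all loci were called higher and 7.09% lower. The median log2 fold change was 0.25. Olig1, a helix-loop-helix factor of oligodendrocyte precursors, had 12.3 and 16.6 CPM in C57bl6J and 23.0, 58.5 and 94.9 at the lowest, median and highest of GFAPCre, a change of 1.85 (SE 0.31, edgeR adjusted p 2.0e-04). Olig2 had 10.9 and 10.0 against 16.5, 35.9 and 61.0, a change of 1.72, and Nkx2-2, a homeobox factor of the lineage, 10.9 and 11.03 against 16.7, 34.0 and 46.9, a change of 1.60. These early factors did not overlap between groups. Ptprz1 and Tcf7l2 rose by 0.81 and 0.66, of which Ptprz1 is also in the astrocyte list.

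St18, a zinc finger gene, had 70.4 and 80.7 CPM against 10.2, 23.7 and 27.6, a change of -1.77 (SE 0.17, edgeR adjusted p 4.3e-08). Mog, of mature myelin, and Lhfpl3 fell by 0.98 and 0.67 on the log2 scale. Mbp, Cnp and Mobp, genes of myelin itself, stood at 0.24, 0.41 and 0.15 and did not pass the threshold. Sox10 and Pdgfra were among 10 members not tested. Lhfpl3, Mog, Ptprz1 and Tcf7l2 were named beyond the rule after their values were seen. Leaving out either C57bl6J animal, 3 rose and 2 fell, and with depth thinned and positions counted once 1 rose and 1 fell. The calls of Ptprz1 and Tcf7l2 were lost without either C57bl6J animal, that of Tcf7l2 also without GFAPCre animal 1 or 4, that of Mog without C57bl6J animal 1 and that of Lhfpl3 without animal 2.

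Many genes of microglia, vessels, meninges, ependyma and choroid plexus were too thin to test. Of 21 microglia genes 8 were tested, and Cx3cr1, Tmem119 and Csf1r were not. P2ry12, a purine receptor of microglia, had 23.9 and 22.1 CPM in C57bl6J and 28.4, 37.0 and 41.8 in GFAPCre, a change of 0.70, and Sall1, a zinc finger factor, 77.9 and 97.3 against 142, 223 and 369, a change of 1.43 (SE 0.22). In all 2 of 8 rose and 1 fell, where 5.48% of all loci were called higher and 7.09% lower. So few calls say little about the list. The median was 0.21, and -0.11 with depth thinned. The P2ry12 call was lost without either C57bl6J animal.

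Of 24 endothelial and mural genes 11 were tested, 3 fell and none rose, where 7.09% of all loci were called lower. The median was -0.28. Flt1, a receptor for vascular growth factors, had 34.2 and 32.6 CPM against 8.88, 15.99 and 27.0, a change of -0.88 (edgeR adjusted p 0.009), and Abcc9, a channel subunit of pericytes, one of -0.92, with Ebf1 as the other. Leaving out C57bl6J animal 1, 1 fell. The Flt1 call was lost without either C57bl6J animal, and the Abcc9 call without either or without GFAPCre animal 1, 4 or 6. The summed level of this list was 599.8 and 562 CPM in C57bl6J and 358 to 424 in GFAPCre, with Cldn5, Kdr and Cdh5 too low to test. Among 20 meningeal, ependymal and choroid plexus genes 11 were tested and 2 fell, where 7.09% of all loci were called lower. So few calls say little about this list. Lmx1a, a homeobox gene, and Aldh1a2, which makes retinoic acid in the meninges, had log2 fold changes of -1.33 and -1.23. DESeq2 called neither. Without C57bl6J animal 2 both calls were lost, and without animal 1 that of Lmx1a.

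Of 21 genes of progenitors and cell division 14 were tested, 1 rose and 2 fell, with a median log2 fold change of -0.07 that was 0.03 under total scaling. Of all loci 5.48% were called higher and 7.09% lower, so that so few calls say little about the list. Pax6 was the gene that rose. Cdk6, a cell cycle kinase, had 86.1 and 89.8 CPM against 41.4, 50.1 and 62.7, a change of -0.78, and Insm1, a zinc finger gene of neuronal precursors, one of -0.64. Top2a, Nes and Ccnd1 stood at -0.71, -0.41 and 0.63 and did not pass the threshold. With C57bl6J animal 1 left out none rose and 1 fell, and with animal 2 left out 1 rose and 1 fell, Insm1 losing its call in both.

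Across all loci the largest increases outside the lists were led by Sox21, a factor of neural progenitors and glia. Its locus at chr14:118233233-118237030 held 19.1 and 23.1 CPM in C57bl6J and 42.8, 88.6 and 122 at the lowest, median and highest of GFAPCre, a log2 fold change of 1.95 (SE 0.28, edgeR adjusted p 3.0e-05). Gbp5, a guanylate-binding protein, rose by 1.80, and Nat8, an acetyltransferase, by 1.62. Tppp2, Myoz2, Dipk1c and Stk17b rose by 1.54, 1.48, 1.47 and 1.46. The highest changes thus mixed Olig1, Olig2, Nkx2-2, Gjb6 and Slc7a11 with genes on no list, and no GFAPCre animal came down to C57bl6J at any of them, since the rule required it. Of these, Stk17b lost its call without C57bl6J animal 2, with DESeq2 and with depth thinned, and Slc7a11 lost it when only stretches within 10 kb of gene ends were counted.

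Among the largest decreases outside the lists, Slc25a13, a mitochondrial carrier, had 56.7 and 52.2 CPM against 10.2, 18.7 and 26.3, a log2 fold change of -1.49 (SE 0.19). Mecom, a zinc finger factor, had 43.7 and 57.2 against 8.88, 18.4 and 39.0, a change of -1.38. Kcnh8, a potassium channel gene, had 69.7 and 66.2 against 22.0, 24.1 and 30.9, also a change of -1.38, and Tmem132c 71.7 and 72.7 against 15.9, 27.99 and 39.9, a change of -1.34. No group values overlapped at these loci, again as the rule required.

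**Figure D4:**
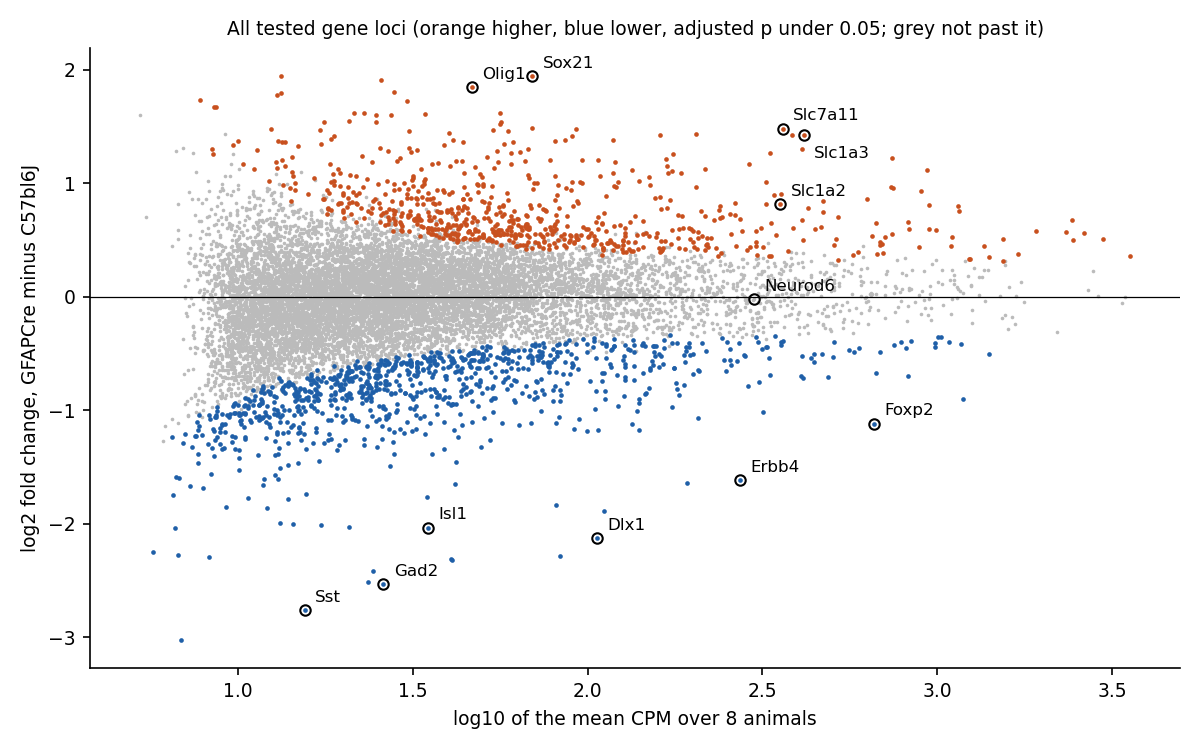
Log2 fold change, GFAPCre minus C57bl6J, against the log10 of the mean CPM over 8 animals for the 12868 gene loci tested by edgeR. Orange and blue points stand higher (705) and lower (912) at an adjusted p under 0.05; Sst, Gad2 and Dlx1 lie at the bottom and Sox21 and Olig1 at the top.

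In windows of 50 kb, which need no gene, 27548 were tested. GFAPCre stood higher in 2267, or 8.23%, and lower in 2579, or 9.36%, by edgeR. The calls dropped from 4846 to 1738 without C57bl6J animal 1 and to 1336 without animal 2. Higher windows touched a protein-coding gene in 1947 of 2267 cases, or 85.9%, and lower windows in 1034 of 2579, or 40.1%, against 73.2% of all windows tested. Windows lower in GFAPCre thus lay mainly between genes.

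The window with the largest increase, chr14:118200001-118250000, covers Sox21 and held 19.6 and 22.8 CPM in C57bl6J and 45.3, 91.8 and 131 at the lowest, median and highest of GFAPCre, a log2 fold change of 2.04 (SE 0.28, edgeR adjusted p 1.1e-05). The window of Olig1, chr16:91250001-91300000, had 13.04 and 15.8 against 25.6, 63.6 and 113, a change of 2.03. The window chr6:85850001-85900000, with the acetyltransferase genes Nat8f2 and Nat8f4, had 21.5 and 23.3 against 64.3, 85.7 and 131, a change of 2.01. A window without a protein-coding gene, chr10:70650001-70700000, nearest to Phyhipl, had 38.5 and 35.4 against 78.7, 137 and 227, a change of 1.96. The fifth was the window of Gm4951, with a change of 2.01. The groups lay apart in these and in the windows that follow, since the rule required it.

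Of the largest decreases, 4 of 5 windows held no protein-coding gene. The window chr4:13450001-13500000, nearest to Runx1t1, a corepressor gene, had 71.7 and 97.7 CPM in C57bl6J and 9.92, 16.2 and 18.98 at the lowest, median and highest of GFAPCre, a log2 fold change of -2.46 (SE 0.19, edgeR adjusted p 3.2e-10). The window chr1:56350001-56400000, nearest to Hsfy2, had 101 and 87.4 against 15.1, 20.5 and 25.6, a change of -2.25. The window chr4:23450001-23500000, nearest to Pou3f2, whose own locus rose, had 65.8 and 59.5 against 11.2, 13.5 and 16.6, a change of -2.23. The window chr14:98500001-98550000, nearest to the transcription factor gene Dach1, changed by -2.20. The Dlx6 and Dlx5 window, chr6:6850001-6900000, had 218 and 211 against 31.5, 49.2 and 73.8, a change of -2.15. These 10 windows passed the threshold with the same sign in each of the alternative fits run on windows of this size.

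Called windows of 1 direction with gaps of at most 50 kb were joined into runs. Most runs held 1 window, 1071 of 1554 lower and 973 of 1405 higher, while 62 lower and 56 higher runs held 5 windows or more. How many runs of that length chance would give was not tested. The runs named here were picked after their values were seen, as the longest of each direction with those at Erbb4 and Sox9, 2 genes of the programs above. The longest lower run, chr13:81750001-83500000, held 28 called windows at a median log2 fold change of -0.81, over Mblac2 and Cetn3. A run of 20 at chr4:12750001-13900000 over Triqk and Runx1t1 had a median of -1.26, 17 windows at Foxp1 and Mitf one of -1.13, 15 windows at chr11:24900001-25800000 without a protein-coding gene one of -0.90, and 14 windows along Erbb4 one of -1.53. The longest higher run, chr8:16250001-17600000, held 23 windows along Csmd1, a complement regulator of neurons, at a median of 0.63. The next were 12 windows along Cadm2 with a median of 0.67, 11 windows at chr17:9400001-10000000 over Pabpc6 with 1.41 and 10 windows at Tafa1 with 0.76. At chr11:112750001-113200000, 9 windows by Sox9, the astroglial factor, had a median of 1.36, as long a run as those at Grm5, Rora and Spry2.

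Among the GFAPCre animals themselves, numbers 1 to 3 shared sequencing pools with each other and numbers 4 to 6 lay in other pools, per the labels. Each of numbers 4 to 6 shared pools with GFAPCreNeg animals. No GFAPCre animal shared a pool with C57bl6J or Syn1Cre animals. Numbers 4 to 6 against 1 to 3 gave 0 of 10718 loci at an edgeR adjusted p under 0.05, and 1 without GFAPCre animal 2. At an unadjusted edgeR p under 0.05 there were 393. With so few animals on each side, so few calls cannot show that the pools had no effect.

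Set beside the other cortex groups, with all 20 animals scaled together and no test made, GFAPCre lay nearer to GFAPCreNeg than to the other groups at Dlx1 and Sst. Some GFAPCre animals shared sequencing pools with GFAPCreNeg animals and none with C57bl6J or Syn1Cre. A likeness of the groups therefore cannot be told apart from shared handling, and whether the pools bear on these levels was not tested. Dlx1 averaged 251 CPM in C57bl6J, 59.7 in GFAPCre, 68.5 in GFAPCreNeg and 338 in Syn1Cre, and Sst 43.0, 6.54, 10.0 and 46.1. The sum of the GABA loci, however, was 92.4 to 127 CPM in GFAPCre, 129 to 188 in GFAPCreNeg and 215 to 232 in C57bl6J, so that none of these overlapped. The sum of the interneuron transcription factor loci was 2830 to 4204 in GFAPCre, 3818 to 4975 in GFAPCreNeg and 4510 to 4676 in C57bl6J. GFAPCre and C57bl6J did not overlap. GFAPCreNeg overlapped C57bl6J through animal 6 alone, and its other animals, at 3818 to 4107, lay below both C57bl6J animals. For astrocyte genes the order was another. Slc1a3 averaged 182 in C57bl6J, 502 in GFAPCre, 744 in GFAPCreNeg and 316 in Syn1Cre, and the sum of the astrocyte loci 3443 ± 243 (SD, n = 2), 6177 ± 1515, 10211 ± 3174 and 4978 ± 2658 (SD, n = 6 each). In that sum GFAPCre spanned 4345 to 8339 and GFAPCreNeg 8206 to 16511, so that the 2 groups overlapped slightly. The highest GFAPCreNeg value came from animal 6 alone, and its other animals spanned 8206 to 9930. Syn1Cre spanned 3284 to 10230, but its highest value came from animal 5 alone. The other Syn1Cre animals, at 3284 to 4938, overlapped C57bl6J and GFAPCre and lay below every GFAPCreNeg animal. At Slc1a3 Syn1Cre ranged from 142 to 807 CPM.

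For striatal, deep-layer and vessel genes C57bl6J stood above the rest. The sum of the striatal loci was 5258 to 5633 CPM in C57bl6J, 3192 to 4237 in GFAPCre, 3805 to 4886 in GFAPCreNeg and 3157 to 3657 in Syn1Cre. The deep-layer sum, which shares Foxp1 and Foxp2 with the striatal one, was 8407 to 8647, 6428 to 7335, 6284 to 7266 and 6074 to 7151 in the same order. The endothelial and mural sum, which shares Ebf1, was 564 to 603, 367 to 434, 355 to 432 and 349 to 427. Isl1 averaged 79.7 CPM in C57bl6J and 20.6, 27.4 and 18.3 in GFAPCre, GFAPCreNeg and Syn1Cre, whereas Nxph1 averaged 244, 68.7, 51.6 and 269. Animals of C57bl6J and Syn1Cre overlapped at Sst and Nxph1. At Dlx1 every Syn1Cre animal, at 294 to 425 CPM, lay above the C57bl6J animals at 243 and 259, and at Isl1 every one lay below.

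**Figure D5:**
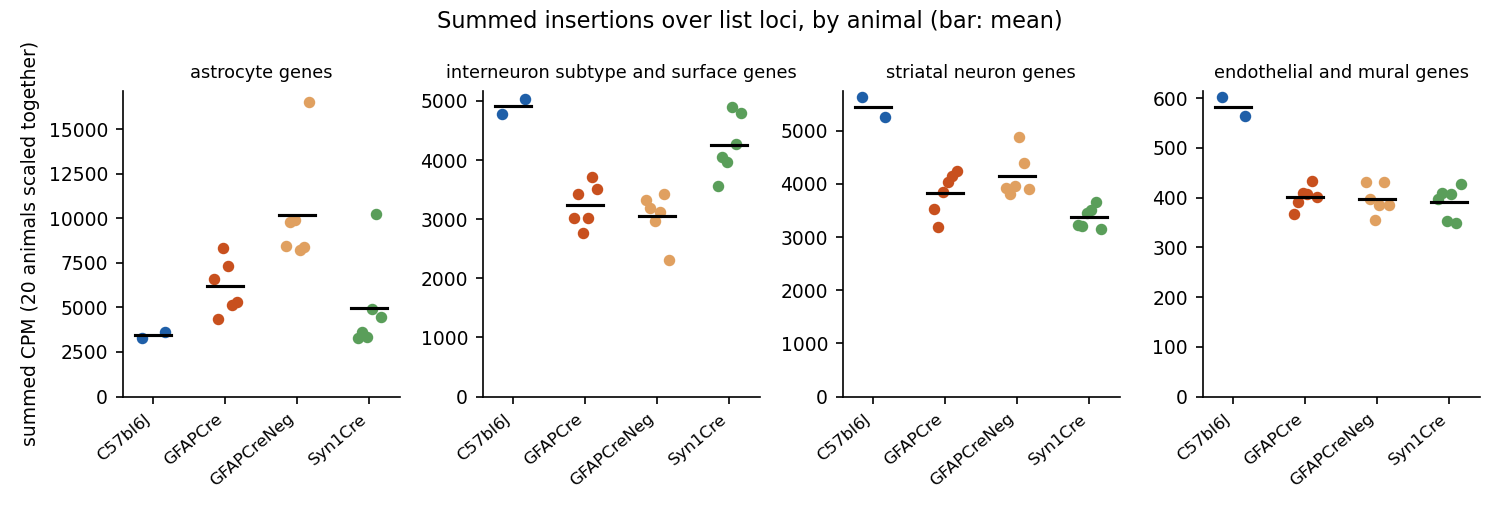
Summed CPM over the loci of 4 gene lists in each animal of C57bl6J (n = 2), GFAPCre, GFAPCreNeg and Syn1Cre (n = 6 each), 20 animals scaled together, with bars at the group means. The C57bl6J animals lie above all others in the striatal list (5258 to 5633) and the endothelial and mural list (564 to 603), and low in the astrocyte list.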

How the data were processed

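Calling cards, transposon insertions read from cortex RNA, were measured in 2 C57bl6J and 6 GFAPCre animals. The authors deposited 1 table per animal, with each row an insertion and its read count; per the submitters' processing notes, the tools named are Novoalign and Bowtie2 and the build is mm10, with versions and roles not given in the sources used here. Of 32877 positions inside RefSeq promoter sequences, all lay at TTAA. Rows were counted per 50 kb window and per protein-coding gene locus (body and 10 kb flanks, 20665 genes, RefSeq GRCm38.p6) on chromosomes 1 to 19, and tested with edgeR 4.0.16 (limma 3.58.1, R 4.3.3): filterByExpr, TMM, quasi-likelihood test, Benjamini-Hochberg adjusted p under 0.05. The animal was the replicate. DESeq2 1.42.0, other scalings, filters, depths, flanks and left-out animals served as alternatives. The fit was tested on simulated data. Totals and shares were compared by exact permutation over 28 splits.

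The members and lists were chosen with earlier results of these data known, so list counts carry no test of their own. Named features were the 5 highest and 5 lowest windows and the 12 highest and 12 lowest loci past the threshold, without overlap between groups, at or above the median level, skipping windows within 200 kb and loci overlapping one taken, and 4 markers; of each list, the members past the threshold or, where over 6 passed, the 4 largest. Further genes are said to be picked after their values were seen, or are given as members that did not pass. Some list members that counted in these tests are not reported by name.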

Additional observations from a re-analysis of the deposited data

Results flagged for a closer look

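Of 128 sets of 6 GFAPCre values tested for a sample far from the others, 4 passed Dixon's 95% critical value for 6 samples, and chance flags about 1 in 20. At Zfp503, GFAPCre animal 5 had 15.03 CPM and the next highest animal 6.584, a gap of 0.726 of the range. The others stood at loci that did not pass the threshold between groups. GFAPCre animal 4 was highest at Mbp, with 154.1 CPM against 123.7 for the next. GFAPCre animal 5 was highest at Mobp, with 48.44 against 31.8, and lowest at Slc17a7, with 6.681 against 13.26.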

How the results depend on the processing

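Called windows, 4846 in the reported fit, numbered 1840 with DESeq2, 3031 with positions counted once, 1763 thinned to the shallowest animal, 1048 thinned with positions counted once, 2487 with GFAPCre animals 1 to 3 alone and 1336 to 5539 leaving out 1 animal. Called loci, 1617, numbered 658, 905, 697, 458, 898 and 495 to 2031 in the same order. Comparing GFAPCre animals 4 to 6 with 1 to 3 gave 0 to 1 calls leaving out 1 animal. Thinning with positions counted once, and the correction for filled positions, were chosen after seeing the data.

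The lists moved as follows. Interneuron transcription factors lower, 12, were 7 thinned with positions counted once and 5 in gene bodies alone. Interneuron subtype genes lower, 15, were 9 thinned with positions counted once and 9 to 16 leaving out 1 animal. Striatal genes lower, 11, were 6 with DESeq2, 5 with positions counted once, 7 with at least 2 reads, 7 thinned, 6 thinned with positions counted once, 7 with GFAPCre animals 4 to 6 alone, 7 near gene ends and 5 to 11 leaving out 1 animal. Deep-layer genes lower, 11, were 7, 4 and 6 with the first 3 of these settings, 4 thinned with positions counted once, 6 near gene ends and 2 to 11 leaving out 1 animal. Astrocyte genes higher, 35, were 23 thinned, 12 thinned with positions counted once and 19 to 39 leaving out 1 animal. Astroglial factors higher, 12, were 7 with DESeq2, 6 thinned with positions counted once, 7 with the replicate block, 6 with GFAPCre animals 1 to 3 alone, 6 with 5 groups in 1 model and 3 to 14 leaving out 1 animal. The Tbr1 locus turned to 0.0579 with positions counted once and 0.0060 in gene bodies alone. Where fewer genes, insertions or animals entered, that is part of the setting; otherwise the cause was not tested.

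The difference in insertions per animal was -423540 with at least 2 reads, -822539 with GFAPCre animals 1 to 3 alone, -1128816 with animals 4 to 6 alone and -1287346 to -664009 leaving out 1 animal. The share within 1 kb of a gene end differed by 0.535, 0.929, 0.890 and 0.727 to 1.09 points in that order, and the share in gene bodies by 5.79, 5.21, 5.80 and 5.35 to 5.74. With 3 GFAPCre animals the exact permutation p cannot go below 0.1, and without a C57bl6J animal not below 0.143.

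With the replicate block, that is the animal number as a term, 1102 loci and 3769 windows were called. Deviations of same-numbered animals from their group means correlated at 0.0007 and -0.0043. With 2 C57bl6J animals, whose deviations mirror each other, these values cannot settle whether the numbers carry more than a label. A random block for the sequencing pool gave 1586 loci. Of 100 named loci, 19 lost their call without C57bl6J animal 1, 21 without animal 2, 13 with DESeq2 and 1 under total scaling; apart from Tbr1 no named locus that was called turned its sign. The 100 include loci that did not pass the threshold, such as Neurod6 and Gfap, and had no call to lose. The share of called loci that lost theirs was therefore larger than these numbers out of 100. C57bl6J had 2 animals, which limits every comparison here, and its deeper tables had 4.27% and 6.24% of insertions at positions holding 10 or more, against 1.61% to 3.62% in GFAPCre.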
